A study of Mus musculus with 6 samples.

Results

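The endoplasmic reticulum folding genes are 8 genes, Hspa5, Hsp90b1, Calr, Canx, Pdia3, P4hb, Pdia4 and Pdia6, whose products fold newly made secretory and membrane proteins. They were followed in mouse oocytes that had finished growing but still held an intact germinal vesicle (GV), the nucleus of meiotic prophase arrest, and that live on stored mRNA. The genes were taken by symbol: every probe set that the platform annotation gives to a single one of these symbols was a member, which made 18 probe sets of the 45037 on the array that are not controls. All 18 passed the filter on low values, so that all 8 genes were among the 12442 tested. The 8 genes were chosen by name with the XY against XX differences of these same arrays already known, so that contrast counts as used in the choice. Their differences between the groups are therefore given as a description, with no test of their own, and support nothing further.

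The tested oocytes came from XY females of B6.Y(TIR), in which a Y chromosome of the TIR type sits on a C57BL/6 background and XY animals can develop as females. The controls were XX littermates. Each group had 3 arrays, each made from 10 GV oocytes, and the females were 25 to 29 days old and had received 5 IU of equine chorionic gonadotropin 45 to 47 hours before collection. XY oocytes carry 1 X fewer as well as the Y, and the protocols also name XO females, which were not analysed here, so the arrays alone cannot tell apart a Y effect from that of the missing X. The comparison asks which stored transcripts differ between XY and XX oocytes. All values below are log2(quantile-normalized intensity + 9), where intensity is the brightness of a probe set and quantile normalization forces 1 common distribution on all arrays. Intensities of different probe sets are not on one scale, so only arrays are compared, within a probe set. In pooled oocytes, fewer copies per oocyte and fewer oocytes that hold the transcript cannot be told apart.

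Proteins bound for the oocyte surface, the zona pellucida or secretion enter the endoplasmic reticulum as unfolded chains. BiP, the product of Hspa5, holds exposed hydrophobic stretches and releases them with ATP, and GRP94, the product of Hsp90b1, takes over a narrower set of clients. Calnexin (Canx) and calreticulin (Calr) are lectins that hold glycoproteins by a trimmed sugar and present them to Pdia3, whereas P4hb, Pdia4 and Pdia6 make and rearrange disulfide bonds. When unfolded protein accumulates, the sensors Ern1 (IRE1), Eif2ak3 (PERK) and Atf6 start the unfolded protein response, which raises transcription of many of these chaperones. Atf6, together with the factor NF-Y, acts there through a promoter motif called the ER stress response element.

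The arrays were not alike within XX. The log2 ratio of 3' to 5' signal of the Actb control, which grows as RNA is shorter, was 5.90, 5.20 and 5.61 in XY 1, XY 2 and XY 3, against 5.53, 3.87 and 4.0 in XX 1, XX 2 and XX 3. On this measure XX 1 stood with the XY arrays and apart from XX 2 and XX 3. Values without XX 1, or against it alone, are therefore given beside the results that it moved most. Without XX 1, the XX arrays left had a lower ratio than any XY array. Group and RNA quality then cannot be told apart, so calls kept or gained there do not show stability. Of the oocyte markers, 10 of 10, Zp1, Zp2, Zp3 and Gdf9 among them, lay above the median of all probe sets on all 6 arrays. Among them 1, X-linked Bmp15, was lower in XY (log2 change -1.34, limma's adjusted p = 0.0101). Their summed deposited intensity was 56470 to 74740 in XY and 73790 to 93670 in XX. Their median log2 change was -0.115 against 0.07 for all genes, with 2 of the 10 above 0. In 4 every XY array lay below every XX array and in 1 above, against 16.2% and 22.6% of all genes. Of 11 granulosa and cumulus markers on the array, the summed deposited intensity was 1883 to 2770 in XY and 2206 to 2906 in XX. These sums, like those below, are of values not scaled between arrays. Amh, a defining granulosa gene, read 2.69 to 6.47 in XY and 3.01 to 6.42 in XX, near the bottom of the scale. Amh and Inhba were below the median of all probe sets on every array. Fshr, Foxl2, Inha, Ptgs2, Kitl and Nr5a2 lay above it on all 6 arrays, and Has2, Hsd17b1 and Slc38a3 on some. Of 9 of these granulosa and cumulus markers tested, 1, Inha, was higher in XY (log2 change 1.58, limma's adjusted p = 0.0475) and 0 were lower. Their median log2 change on the normalized scale was 0.22, against 0.07 for all genes, and 7 of the 9 were above 0. For 8 theca and stroma markers the sum was 510 to 744 in XY and 363 to 451 in XX, with Col1a1, Col3a1, Lum and Cyp17a1 below the median on every array. Among the 4 of them tested, Dcn (log2 change 1.85, limma's adjusted p = 0.050001, just over the threshold) and Cyp11a1 (0.28, 0.231) had every XY array above every XX array, and the median change was 0.52. Dcn had deposited intensities of 320, 200 and 135 in XY and 75.2, 90.2 and 20.1 in XX. For 7 blood, immune and endothelial markers the sum was 280 to 353 in XY and 192 to 300 in XX, and of 4 tested 1, the macrophage gene Cd68, was higher in XY (0.59, limma's adjusted p = 0.0392). The part of such cells in the results was not tested.

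The promoter sequences of the 8 genes, which played no part in the array values, often held the stress element, of which ER chaperone genes are the textbook carriers. Within 250 bases before to 50 bases after the start of each gene (RefSeq, GRCm38.p6, where all 8 matched), the letters CCAAT, any 9 bases and then CCACG were searched on both strands. An exact match stood in 5 of the 8 genes, Hspa5, Hsp90b1, Calr, Canx and Pdia6, against 39 of 32851 windows of this kind in the genome (0.119%), which belong to 37 genes. The CCAAT part of the motif is by itself a common promoter box. Allowing 1 mismatch, a step added after the exact matches were seen, took in Pdia3 and Pdia4, against 1.5% of windows, and left P4hb out with 2 mismatches. The related unfolded protein response element, TGACG followed at once by TGG, searched likewise, was in 0 of the 8 and in 0.676% of windows. The stretches around the exact matches are shown because they carry what these genes have in common, with that of Pdia3 for the same spacing and 1 changed letter, read 5′ to 3′ on the strand of the gene and with the matching letters in capitals. A match is a description of letters and not evidence of binding.
Hspa5, chr2:34772010-34772058, plus strand: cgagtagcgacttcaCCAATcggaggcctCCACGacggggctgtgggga
Hsp90b1, chr10:86705623-86705671, minus strand: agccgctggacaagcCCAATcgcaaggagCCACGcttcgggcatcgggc
Canx, chr11:50325785-50325833, minus strand: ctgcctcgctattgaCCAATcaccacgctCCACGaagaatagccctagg
Pdia6, chr12:17266476-17266524, plus strand: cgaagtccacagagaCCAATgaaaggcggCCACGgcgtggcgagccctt
Calr, chr8:84847060-84847108, minus strand, motif on the opposite strand: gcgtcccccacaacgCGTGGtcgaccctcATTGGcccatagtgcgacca
Pdia3, chr2:121413858-121413901, plus strand: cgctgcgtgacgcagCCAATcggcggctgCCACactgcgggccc
The element lay 65 to 47 bases before the start in Hspa5, 212 to 194 in Hsp90b1, 145 to 127 in Canx, 98 to 80 in Pdia6 and 162 to 144 in Calr. Its 1-mismatch form in Pdia3 lay 29 to 11 bases before the start.

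Read at the probe set with the highest mean of each gene, 4 of the 8 genes had every XY array below every XX array, Hsp90b1, Pdia3, Pdia6 and Canx, as did 16.2% of all genes tested. None had every XY array above, against 22.6% of all genes. In the fit over all genes (limma, Benjamini-Hochberg adjusted p under 0.05), 2 of the 8, Hsp90b1 and Pdia3, were among the genes lower in XY and 0 among those higher, where 5.34% and 7.86% of all genes were called. Nothing is read from these counts, because the genes were chosen with this contrast known. The median log2 change was -0.34 over the 8 genes and 0.07 over all genes, with 5 of the 8 negative.

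**Figure D1:**
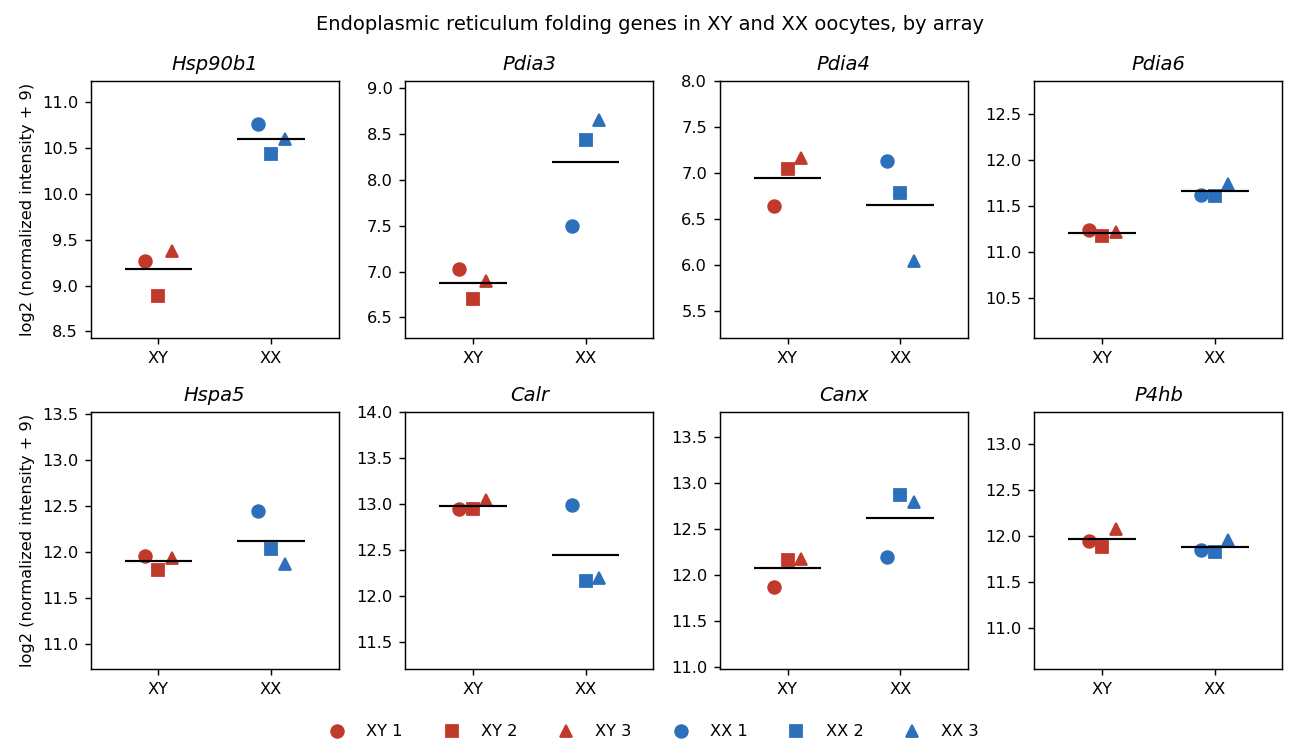
The 8 genes by array: each panel has 1 gene at its brightest probe set, the y axis is log2(normalized intensity + 9) over the same span of units in every panel, points are arrays (XY left, XX right) and lines are group means. Hsp90b1 shows the widest gap, -1.42 between the means, while in Calr, Canx and Pdia3 the XX 1 point lies nearer to the XY arrays than XX 2 and XX 3 do.

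Among the general chaperones, Hsp90b1 differed most. It read 9.26, 8.89 and 9.38 in XY 1, XY 2 and XY 3, against 10.76, 10.43 and 10.60 in XX 1, XX 2 and XX 3, and in deposited intensities it was 514 ± 142 in XY and 1736 ± 360 in XX (SD, n = 3 each). All XY arrays lay below all XX arrays by more than the spread within either group. The difference of -1.42 ± 0.18 (SE over arrays) was -1.34 without XX 1, -1.59 against XX 1 alone and -1.66 with the Actb ratio as a covariate. Its second probe set read 8.59, 7.81 and 8.35 in XY against 10.04, 10.51 and 10.15 in XX, again with no overlap and a difference of -1.98 ± 0.27. The gene lies on chromosome 10, from 86690841 to 86705444.

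Hspa5, the gene of BiP and the most used marker of the unfolded protein response, did not show one direction. Its brightest probe set read 11.95, 11.80 and 11.93 in XY and 12.44, 12.03 and 11.87 in XX, so that the groups overlapped, with a difference of -0.22 ± 0.18. Most of this came from XX 1, without which the difference was -0.06. The dimmest of its 3 probe sets read 7.81, 7.47 and 7.51 in XY and 9.04, 8.5 and 8.84 in XX, lower in every XY array by a mean of -1.20 ± 0.19. The third had 8.69, 8.67 and 8.95 in XY and 8.82, 8.34 and 8.13 in XX, a difference of 0.34 ± 0.22. The 3 probe sets thus disagree, and why was not tested. Both chaperone genes carry the exact promoter element shown above, and at their brightest probe sets the groups were separate for Hsp90b1 and overlapped for Hspa5.

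The paired lectins went opposite ways in their means. Canx, the membrane-bound calnexin, read 11.87, 12.16 and 12.18 in XY and 12.20, 12.87 and 12.79 in XX, a difference of -0.55 ± 0.24. XX 1 was close to the upper XY arrays, and the groups were separate only by a narrow margin. The other 2 probe sets of Canx had differences of -0.88 ± 0.24 and -1.0 ± 0.25, also with no overlap. All 3 probe sets of the gene were therefore lower in each XY array than in any XX array. The size depended on XX 1, as the difference was -0.75 without it and -0.13 against it alone, and it was -0.11 ± 0.18 with the Actb ratio as a covariate.

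Calr, the soluble calreticulin that also buffers calcium in the lumen, read 12.94, 12.95 and 13.04 in XY and 12.99, 12.16 and 12.19 in XX. XX 1 was within the XY range and the other XX arrays were below it, so the groups overlapped, with a difference of 0.53 ± 0.27. Its 2 other probe sets had 0.34 ± 0.25 and 0.36 ± 0.27, also overlapping. In the probe set of the brightest signal the difference was 0.78 without XX 1, 0.04 ± 0.20 with the Actb covariate and -0.01 against XX 1 alone. The Actb ratio and the Calr level thus moved together across the XX arrays, and the part of RNA quality in the difference was not tested beyond these values.

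Among the disulfide isomerases, Pdia3, the partner of both lectins, read 7.03, 6.70 and 6.90 in XY and 7.49, 8.43 and 8.65 in XX. Every XY array was below every XX array, with XX 1 between the other XX arrays and XY, and the difference was -1.31 ± 0.37. It was -1.67 without XX 1, -0.62 against XX 1 alone and -0.76 ± 0.31 with the Actb covariate. A dimmer probe set of Pdia3 went the other way, at 6.68, 6.68 and 6.30 in XY and 6.27, 5.89 and 5.91 in XX (0.53 ± 0.18), the only one of the 18 with all XY arrays above all XX arrays. As the mean of both, the change was -0.39. Its place in the count of genes past the threshold given above was lost with that mean, with no filter, with the replicate block, with the Actb covariate and without XY 1, XY 2, XY 3, XX 2 or XX 3, whereas the change stayed negative in 17 of 17 alternatives (-1.67 to -0.39).

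Pdia6, an isomerase that also acts on the sensors IRE1 and PERK, had the tightest values. It read 11.24, 11.18 and 11.22 in XY and 11.62, 11.61 and 11.75 in XX, a difference of -0.45 ± 0.05. The gap was much wider than the spread in either group, and XX 1 was with the other XX arrays (-0.41 against XX 1 alone). Its dimmer probe set overlapped between the groups (0.25 ± 0.18), so the mean of both was -0.10. P4hb, the most abundant of the classical isomerases and a subunit of prolyl 4-hydroxylase, has 1 probe set, at 11.95, 11.87 and 12.07 in XY and 11.85, 11.83 and 11.95 in XX. The groups overlapped, and the difference of 0.09 ± 0.07 was -0.43 with median scaling and -0.27 with no further scaling, so no direction is given. Pdia4, a larger isomerase with an extra thioredoxin domain, read 6.64, 7.04 and 7.16 in XY and 7.14, 6.78 and 6.04 in XX, with wide overlap (0.29 ± 0.36). Its difference was 0.54 without XX 1 and -0.19 against XX 1 alone, so that no direction is given. Its other probe set, with low deposited intensities of 3.31 to 36.8, had -0.53 ± 0.56.

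**Figure D2:**
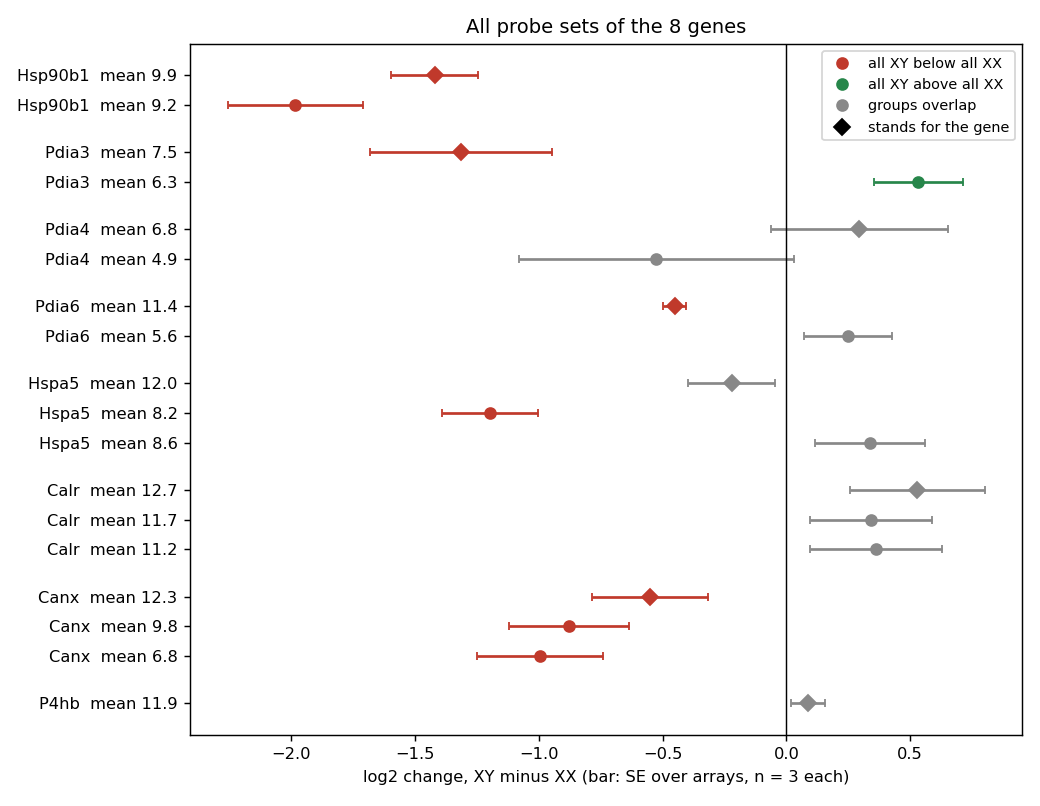
Log2 change (XY minus XX) of all 18 probe sets, with the mean log2 level beside each name and bars of 1 SE over 3 arrays per group. Of the 18, 8 have all XY arrays below all XX arrays, 1 (Pdia3) has them above and 9 overlap; both probe sets of Hsp90b1 and all 3 of Canx are below 0, while those of Pdia3, Pdia4, Pdia6 and Hspa5 differ in sign within a gene.

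Of the 7 genes with several probe sets, 4 held both signs. In Pdia4 and Pdia6 the second sign came from a dim probe set whose groups overlapped. Its mean was 4.61 in XY and 5.14 in XX for Pdia4, and 5.71 and 5.46 for Pdia6. These are therefore not read as disagreement within the gene. Hsp90b1, Canx and Calr kept 1 sign over theirs. The 8 genes also did not share one profile over the arrays: with each gene centred on its own mean, their root mean square difference from their joint mean profile ran from 0.08 for Pdia6 to 0.61 for Pdia3. Genes outside the lists lay closer to that mean profile than any of the 8 did. They were picked as the nearest of all such genes tested, so nothing is read from their closeness. The nearest were Ms4a1 (0.031), Tatdn1 (0.0388), Ric8b (0.0396), Scg3 (0.0442) and Mvp (0.0463), each over 6 arrays, all with log2 changes between -0.42 and -0.35.

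The scaling of the arrays moved the differences, and not by the same amount in every gene. The median change of all genes was 0.07 after quantile normalization, -0.27 with median scaling, -0.12 with the deposited values and 0.18 with trimmed mean scaling. Relative to that median, over these 3 other scalings Hsp90b1 was at -1.65 to -1.63, Pdia3 at -1.36, Canx at -0.74 to -0.72, Pdia6 at -0.72 to -0.69 and Hspa5 at -0.50 to -0.47. Calr was at 0.31 to 0.34 and Pdia4 at 0.35 to 0.37. P4hb was at -0.16 to -0.14. After quantile normalization the same quantity was -1.49 for Hsp90b1, -1.38 for Pdia3, -0.62 for Canx, -0.52 for Pdia6, -0.29 for Hspa5, 0.46 for Calr, 0.23 for Pdia4 and 0.02 for P4hb, which thus changed sides.

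**Figure D3:**
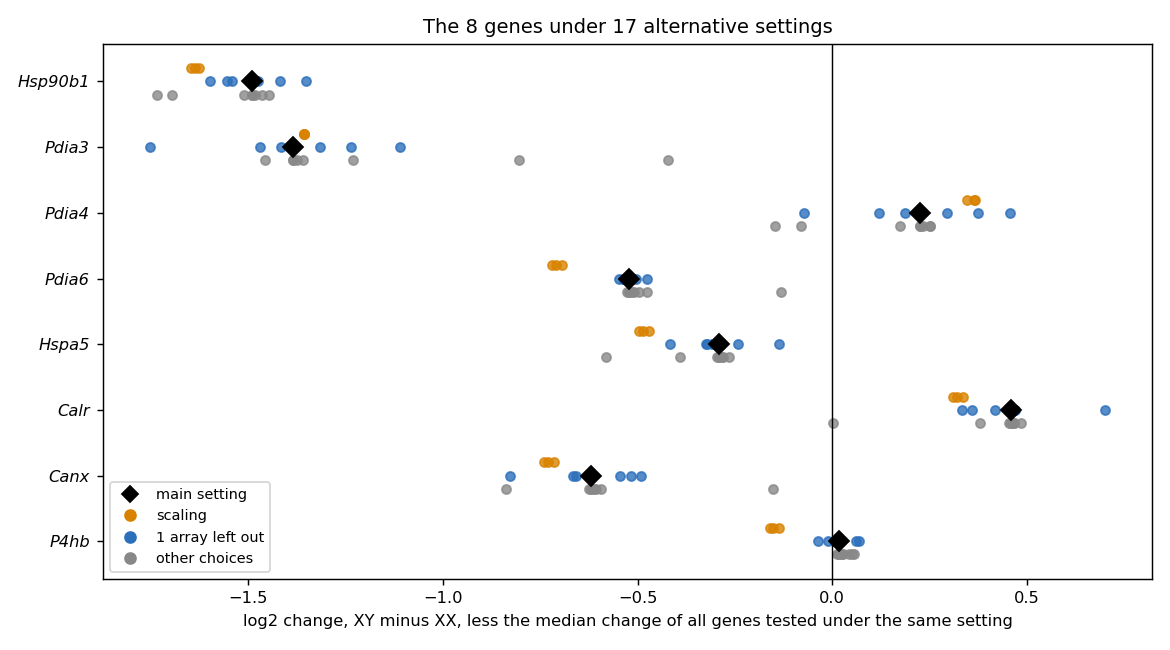
Log2 change of each gene (XY minus XX) less the median change of all genes tested under the same setting, for the main setting (diamond) and 17 alternatives (points). Hsp90b1 stays between -1.73 and -1.35, Pdia3 runs from -1.75 to -0.42 and Calr from 0.00 to 0.70, while Pdia4 and P4hb lie on both sides of 0.

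The other genes of the folding pathway, in lists written from textbook knowledge, were counted in the same fit. Of 136 tested (of 160 listed, 154 on the array), 6 were higher and 4 lower in XY oocytes by limma's adjusted p, where 7.86% and 5.34% of all genes were called, with a median log2 change of 0.02 against 0.07 for all genes. At an unadjusted p under 0.05 there were 39 of the 136, against 4003 of all 12442 genes. The counts moved with the setting, from 2 to 19 higher and from 0 to 22 lower.

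Among 17 further disulfide isomerases and thiol oxidation genes, 1 rose and 0 fell. Tmx4, a membrane-anchored thioredoxin-like protein, read 7.99, 8.30 and 7.90 in XY and 6.11, 5.48 and 5.79 in XX, with no overlap. It rose by 2.27 ± 0.21 (SE, adjusted p = 0.00322) and passed in 17 of 17 alternatives, although its other kept probe set had -0.03. Ero1a and Ero1b, the oxidases that recharge P4hb, had 0.53 (adjusted p = 0.0609) and -0.38 (0.183). Neither KDEL receptor tested, Kdelr1 (0.08) or Kdelr2 (-0.12), which return escaped lumenal chaperones from the Golgi, passed limma's test, and 0 of them had an unadjusted p under 0.05. The prolyl hydroxylase subunits that pair with P4hb, P4ha1 (-0.03) and P4ha2 (0.29), also had 0 past it and 0 at an unadjusted p under 0.05.

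Of 21 co-chaperones of BiP and GRP94, 1 rose and 1 fell. Dnajc3, a J-domain protein that brings clients to BiP, read 10.54, 10.22 and 10.65 in XY and 11.14, 11.15 and 11.07 in XX, and fell by 0.65 ± 0.16 (adjusted p = 0.0427). All 5 of its probe sets were lower in XY by the mean, from -0.77 to -0.45. The prolyl isomerase gene Fkbp9 rose by 1.24 ± 0.26 (adjusted p = 0.0246), with a second probe set at 1.02. In the calnexin and calreticulin cycle, 1 of 13 rose and 0 fell. This was Man1a, a mannosidase gene, at 0.82 ± 0.20 (adjusted p = 0.0367), and its other probe set had -0.18. Uggt1, which puts the sugar back on misfolded glycoproteins for another round with the lectins, had -0.42 (adjusted p = 0.145), and the testis and oocyte calreticulin relative Calr3 had -0.74 (0.078).

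The switches of the unfolded protein response were not called. Ern1 (-0.20), Eif2ak3 (-0.14) and Atf6 (0.30) had limma's adjusted p from 0.286 to 0.636, and so did not pass. With the mean of its probe sets, Ern1 was lower in XY (-0.64, adjusted p = 0.0351). Of the transcription factors downstream, Xbp1 had 0.79 ± 0.36 (limma's adjusted p = 0.178), Atf4 had 0.10 (0.776) and Ddit3, the gene of CHOP, had 0.15 (0.646). Xbp1 read 6.13, 6.54 and 6.62 in XY and 6.49, 5.12 and 5.31 in XX, with XX 1 within the XY range. Without XX 1 its change was 1.22 (limma's adjusted p = 0.0119). That value rests on the low XX 2 and XX 3, which also have the lower Actb ratios. Over 16 other settings the change of Xbp1 ran from 0.097 to 1.22. The splicing of Xbp1 mRNA by IRE1 was not measured here. Of the 20 sensors and factors tested, 0 rose and 1 fell, X-linked Mbtps2, the site-2 protease that releases Atf6 from the membrane, at -0.73 ± 0.17 (adjusted p = 0.0318).

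Of 14 classical targets of Atf6 and Xbp1, 0 rose and 1, Dnajc3, fell, with a median of -0.21 against 0.07 for all genes. Of the 14, 4 had every XY array below every XX array, as did 16.2% of all genes. None had them above, against 22.6% of all genes. The values below 0 were those of Edem1 (-0.69), Sdf2l1 (-0.52), Manf (-0.40), Creld2 (-0.32), Hyou1 (-0.26), Dnajb11 (-0.25) and Derl3 (-0.18). With median scaling Edem1, Manf, Creld2 and Dnajb11 were also lower past the threshold (limma's adjusted p from 0.0287 to 0.0476), and Edem1 was so without XX 1 (-1.02, 0.00886). Over 17 other settings the change of Edem1 ran from -1.17 to -0.04. The values above 0 were those of Xbp1, Herpud1 (0.52), Syvn1 (0.48), Sel1l (0.27), Dnajb9 (0.20) and Sec61b (0.16). Per array, the median of these targets, each centred on its own mean, was -0.10, -0.11 and -0.06 in XY 1, XY 2 and XY 3, against 0.25, 0.05 and -0.05 in XX 1, XX 2 and XX 3. XX 3 lay near XY 3 on it, so the groups were not far apart. Other tested genes with the exact promoter element numbered 12, of which 3 had a change above 0, as did 6922 of all 12442 genes. Their median was -0.31, and 1 of them, Dnajc3, was past the threshold. Dnajc3, Creld2, Derl3 and Syvn1 are also among the 14 targets above, so the sets overlap.

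**Figure D4:**
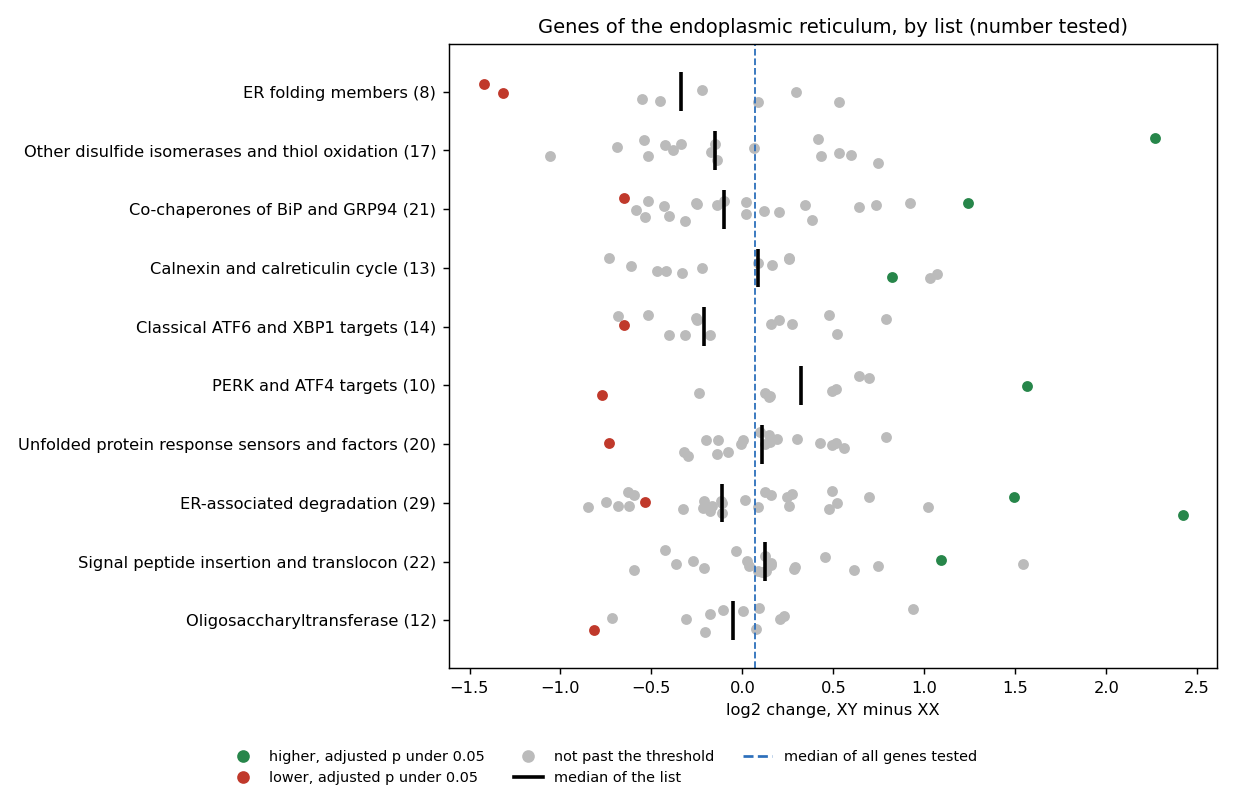
Log2 change (XY minus XX) of each tested gene by list, green for genes higher and red for genes lower past limma's adjusted p of 0.05, grey for the rest; black ticks are list medians and the dashed line is the median of all genes, 0.07. The list medians lie between -0.34, for the 8 folding genes, and 0.32, for the targets of PERK and ATF4, and single genes such as Derl1 (2.42) and Tmx4 (2.27) lie far from their lists.

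In the removal of misfolded protein to the proteasome, 2 of 29 genes rose and 1 fell. Derl1, a channel component of the membrane, read 8.58, 8.76 and 8.55 in XY and 6.93, 5.31 and 6.39 in XX, with no overlap. It rose by 2.42 ± 0.38 (adjusted p = 0.0114). A second of its 4 kept probe sets had 1.51, at 6.40, 5.64 and 5.93 in XY and 4.925, 3.85 and 4.66 in XX. It passed the filter through the XY arrays, where it is high, so it adds no support. The others had 0.06 and -0.15, so the rise rests on the brightest probe set. Derl2, a relative of Derl1, fell by 0.54 ± 0.14 (adjusted p = 0.0479), while its other probe set had 0.20. Selenos, a membrane selenoprotein of the same complex, rose by 1.49 ± 0.33 (limma's adjusted p = 0.0307). It read 6.16, 6.62 and 7.28 in XY and 5.66, 5.14 and 4.78 in XX, where the values were low. A second kept probe set had 0.99, and a further one that did not pass the filter had 0.30. It was tested in 16 other settings.

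At the entry gate, 1 of 22 genes of signal peptides and the translocon rose and 0 fell. Sec11a, a catalytic subunit of signal peptidase, rose by 1.09 ± 0.24 (adjusted p = 0.0304), at 12.35, 12.44 and 12.45 in XY and 11.86, 11.13 and 10.98 in XX, where XX 1 was again the nearest to XY. Its relative Sec11c, in the same list, had 0.11 (limma's adjusted p = 0.80). Of 12 oligosaccharyltransferase genes, which add the sugar that the lectins later read, 0 rose and 1 fell. That was X-linked Magt1, an oxidoreductase subunit, at -0.82 ± 0.15 (adjusted p = 0.0167), with -0.02 at its other probe set. Of the 10 pathway calls named here, all but that of Tmx4 ended in at least 1 setting, and with the Actb covariate all 9 of these did. Leaving out XY 1 ended those of Fkbp9, Dnajc3, Man1a, Mbtps2, Derl2, Sec11a and Magt1, and leaving out XY 2, XY 3 or XX 2 those of the same genes and of Selenos. Without XX 3 the calls of Fkbp9, Dnajc3, Man1a, Mbtps2, Selenos, Derl2 and Sec11a ended. Over these the adjusted p ran from 0.0558 to 0.152. With the mean of probe sets, those of Man1a (0.207), Derl2 (0.506) and Magt1 (0.117) ended. With median scaling those of Fkbp9, Man1a and Sec11a ended (0.0653 to 0.249). Without XX 1 all 10 were still called, with larger changes in Fkbp9 (1.51), Sec11a (1.34) and Derl1 (2.79) among others. As XX 2 and XX 3 differ from every XY array in the Actb ratio, this does not show that the calls are stable. With the deposited values those of Fkbp9, Dnajc3, Man1a, Mbtps2, Derl2 and Sec11a ended (adjusted p from 0.0532 to 0.219), and with no filter those of Dnajc3, Man1a, Mbtps2, Selenos, Derl2 and Sec11a (0.0594 to 0.0986).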

How the data were processed

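The authors deposited linear intensities, 1 for each probe set on each array. The submitters' processing notes name MAS5 alone, and its version and target value were not given in the sources. Per the labels' protocols, cRNA was made in a 2-cycle labelling with oligo(dT) primers for a 3' array. The deposited arrays did not share a median (24.5 to 31.4), so quantile normalization came first. Values are log2(normalized intensity + 9), 9 being their 25th percentile. A probe set was kept if 3 or more of the 6 arrays had it at or above their median, and the brightest one by mean stood for its gene. Symbols came from the platform annotation, updated by gene ID. XY was compared with XX by limma 3.58.1 in R 4.3.3 over 12442 genes (lmFit, eBayes, Benjamini-Hochberg). The SE of a member is from the SDs of its arrays, except with the Actb covariate, where it is limma's, as for other genes. The labels call the replicates biological, and 3 arrays per group limit the precision. Replicate numbers were not taken as pairs. Named genes were all members, up to 3 called genes per list, the sensors and the Atf6 and Xbp1 targets; further genes of the lists were named after their values were seen. Members and lists were chosen with earlier results of these data known. Steps were tested on simulated data. Alternatives covered scaling, pseudocount, filter, probe sets, variance model, replicate block, Actb covariate and each array left out; XX 1 alone was added after seeing the data.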

Additional observations from a re-analysis of the deposited data

How the results depend on the processing

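The log2 change of Hsp90b1, Pdia3, Pdia6, Hspa5 and Canx was negative and that of Calr positive in all 17 other settings, whereas Pdia4 was negative in 3 and P4hb in 2 of them. Against XX 1 alone, Calr was at -0.01 and Pdia4 at -0.19. The number of genes past limma's threshold, 1643, was 1001 with the deposited values, 913 with no filter, 679 with the replicate block and 236 with the Actb covariate, and 487 to 3230 with 1 array left out. It was 2104 with median scaling, 2011 with trimmed mean scaling, 2185 with the 70th percentile filter, 2174 with a pseudocount of 32 and 1342 with no pseudocount. With median scaling the median change of all genes was -0.27. The share of all genes called lower under each setting is not given here. Among the 8 genes, the 2 lower were 4 with median scaling or a trended variance and 1 with no filter, the replicate block or the Actb covariate, and 1 to 4 with 1 array left out; the 0 higher were 1 without XX 1 and 0 otherwise. Of the other pathway genes, the 6 higher and 4 lower were 3 and 22 with median scaling, 3 and 1 with the deposited values, 3 and 1 with no filter, 11 and 10 with the 70th percentile filter, 12 and 11 with a trended variance, 3 and 0 with the replicate block, and 2 and 0 with the Actb covariate. The higher ones were 10 with trimmed mean scaling and with a pseudocount of 32, and the lower ones 2 with no pseudocount. With 1 array left out they were 2 to 19 and 0 to 18, the most without XX 1 (19 and 18). The cause of these moves was not tested. Same-numbered arrays did not deviate together (correlations of -0.10, 0.00 and -0.04), so the numbers give no pairing; the block ended the calls of Dnajc3, Man1a, Mbtps2, Selenos, Derl2, Sec11a and Magt1 (adjusted p from 0.0595 to 0.111), and no pseudocount those of Dnajc3 (0.0528) and Derl2 (0.0537). Signal over background could not be read, as no detection calls were used here.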

Other observations

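The targets of PERK and ATF4, the branch of the unfolded protein response shared with amino acid shortage, gave no single direction. Of 10 tested, 1 rose and 1 fell, and the median log2 change was 0.32 against 0.07 for all genes. Vldlr, a lipoprotein receptor gene, rose by 1.56 ± 0.31 (SE, limma's adjusted p = 0.0222), at 8.30, 8.15 and 8.08 in XY and 6.25, 7.37 and 6.22 in XX. Its other probe sets, none of which passed the filter, had 1.22, 0.76, 0.32, 0.10 and 0.06. Slc7a11, the cystine carrier gene, fell by 0.77 ± 0.17 (adjusted p = 0.0316), at 9.19, 9.29 and 9.30 in XY and 10.29, 10.04 and 9.77 in XX, and its other probe set had -0.76. Asns (0.70), Sesn2 (0.64), Chac1 (0.52) and Trib3 (0.49) did not pass. The call of Vldlr ended without XY 1, XY 2, XY 3 or XX 3 (adjusted p from 0.0627 to 0.0752) and with the Actb covariate (0.0791). That of Slc7a11 ended without XY 1, XY 2, XY 3 or XX 2 (0.0907 to 0.0991), with the Actb covariate (0.0734), with no filter (0.0659) and with the replicate block (0.0815).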
